A study of Mus musculus with 53 samples.

Results

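Macrophages sense interleukin-4 (IL-4) through a small set of proteins, and the 9 genes described here encode them. IL-4 binds the IL-4 receptor alpha chain (Il4ra), which then pairs with the common gamma chain (Il2rg) to form the type I receptor or with the IL-13 receptor alpha 1 chain (Il13ra1) to form the type II receptor. Janus kinases (JAKs) bound to the chains, namely JAK1, JAK2, JAK3 and TYK2, phosphorylate the receptor, which recruits the transcription factor STAT6 and, at a separate motif, the adaptor IRS2. Phosphorylated STAT6 enters the nucleus and switches on the genes of alternative macrophage polarization, whereas IRS2 leads to the phosphoinositide 3-kinase (PI3K) branch. The members were taken by gene symbol from this known pathway and not by their values: 9 of the 23847 loci in the tables were chosen, and all 9 had enough signal to be tested.

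Bone marrow-derived macrophages (BMDMs) were grown for 6 days in L929 cell supernatant, a source of the growth factor M-CSF, from mice aged 8-12 weeks on a C57BL/6 background. They were wild type (WT) or Stat6KO (Stat6-/- in the study's text, a full-body knockout whose allele was not given in the sources used here). The cells received 20 ng/ml IL-4 for 1, 3, 6 or 24 h or were kept as time-matched controls, and a control was taken at 0 h. Each WT group held 4 samples, except 24 h of IL-4 with 3, and each of the 9 Stat6KO groups held 2. In all, 53 samples were used.

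Levels are FPKM (fragments per kilobase, normalised to the number mapped in each sample), which is a level per length and so allows genes to be compared. Differences are log2 changes on the log2(FPKM + 1) scale, which understates the change of genes with a low level. A member passed the test when its limma p-value, adjusted by the Benjamini-Hochberg method over all 11146 tested loci, was under 0.05. The tables give no counts. The depth relative to the median sample, recovered from low loci, ranged from 0.706 to 1.55, and its median was 1 in WT and 1.01 in Stat6KO. The macrophage markers Csf1r and Cd68 lay at 610 to 1081 FPKM and 779.9 to 1678 FPKM over the samples, while the summed level of the T cell, B cell, natural killer, mast cell, dendritic cell, fibroblast and erythroid markers did not pass 2.59 FPKM for any of these lists in any sample. The neutrophil markers were not near 0, with sums of 219.9 to 614 FPKM in WT and 578 to 1060 FPKM in Stat6KO (6 of 7 genes in the tables, none at 0 in any sample; Ly6g was not among them). Lyz2, another macrophage marker, was listed at 0 in 7 samples; it is counted among the 7 tested macrophage markers, did not pass with IL-4 in WT at any time, and its level is not described.

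In the mm10 build the receptor chains lie at chr7:125552282-125579474 (Il4ra), chrX:101264387-101268206 (Il2rg) and chrX:36112139-36171261 (Il13ra1). The kinase genes lie at chr4:101151974-101265282 (Jak1), chr19:29251828-29313080 (Jak2), chr8:71676383-71690577 (Jak3) and chr9:21104068-21131275 (Tyk2), Irs2 at chr8:10986964-11008430 and Stat6 at chr10:127642986-127660987. All 9 are annotated as protein coding. The levels of 2 members are less certain than those of the others: 27.5% of the 50-base stretches of Il2rg transcripts and 6.93% of those of Jak3 also occur in other genes. On the same strand, Il2rg shares 728 exon bases with the overlapping gene Gm20489, and Jak3 shares 404 with Insl3. Il4ra, Tyk2, Irs2 and Stat6 share exon bases with a gene on the opposite strand, 571, 554, 162 and 40 bases, and the library kit was not stated to keep strand.

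The 4 members Il4ra, Il13ra1, Jak2 and Irs2 changed at least 2-fold with IL-4 in WT cells. The 250 bases before the RefSeq start site (GRCm38.p6, the same build) are shown for the 3 of them whose start in the tables lay within 31 bases of the RefSeq start; for Irs2 these starts were 499 bases apart. They are shown because STAT6 binds DNA as a dimer at TTC and GAA facing each other, and the capitals mark TTCC and GGAA, one arm of such a site, of which GGAA is also the core of ETS factor sites. All 3 are on the plus strand, at chr7:125552021-125552270 (Il4ra), chr19:29251553-29251802 (Jak2) and chrX:36111858-36112107 (Il13ra1).
Il4ra: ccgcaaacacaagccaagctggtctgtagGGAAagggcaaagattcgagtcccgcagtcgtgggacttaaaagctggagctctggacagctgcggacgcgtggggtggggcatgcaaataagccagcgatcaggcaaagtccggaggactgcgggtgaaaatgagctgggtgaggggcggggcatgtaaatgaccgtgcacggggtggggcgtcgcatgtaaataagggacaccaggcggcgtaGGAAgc
Jak2: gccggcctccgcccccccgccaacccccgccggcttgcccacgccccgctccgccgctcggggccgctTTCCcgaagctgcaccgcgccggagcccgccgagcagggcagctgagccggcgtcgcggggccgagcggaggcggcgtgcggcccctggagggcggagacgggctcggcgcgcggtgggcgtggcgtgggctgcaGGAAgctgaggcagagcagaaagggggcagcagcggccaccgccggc
Il13ra1: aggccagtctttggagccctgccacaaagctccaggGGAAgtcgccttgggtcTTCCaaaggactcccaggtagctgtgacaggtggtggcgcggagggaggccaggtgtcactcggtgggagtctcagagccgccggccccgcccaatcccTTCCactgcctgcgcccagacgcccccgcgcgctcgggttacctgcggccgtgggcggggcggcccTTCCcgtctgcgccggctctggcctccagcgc
TTC followed by GAA after 4 bases of any kind, the spacing that STAT6 prefers, and after 3, the spacing of other STATs (both read the same on the 2 strands), were each in 0 of the 9 member windows from 250 bases before to 50 after the start, against 6.95% and 8.3% of 32851 windows of all genes. TTCC or GGAA was in 9 of 9 member windows and in 96% of all windows, so these letters do not set the members apart. These matches describe letters in this window and say nothing of binding.

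Before IL-4, the members spanned more than 2 orders of magnitude. In WT cells at 0 h the order of levels was Il2rg at 153 ± 24.9 FPKM (SD, n = 4 here and for the next values), Stat6 at 83.0 ± 3.11, Jak1 at 43.2 ± 1.73, Tyk2 at 29.7 ± 3.65, Il4ra at 18.8 ± 2.45, Jak2 at 11.3 ± 0.776, Jak3 at 8.20 ± 0.808, Il13ra1 at 5.89 ± 0.702 and Irs2 at 1.12 ± 0.121. No 2 neighbours in this order overlapped in their sample ranges. By RNA level, Il2rg was therefore the highest of the 3 receptor chains, Il4ra was intermediate, and Il13ra1 was the lowest. These data hold no protein levels of the chains. The RNA comes from whole cultures, so fewer cells that express a gene and less RNA per cell cannot be told apart in any value given here.

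In WT cells IL-4 was followed by changes in some of the members, most of them at 3 and 6 h. After 1 h, 2 of 9 members passed the test, both higher (Irs2 and Jak2), where 9.39% of all tested loci passed, 5.67% higher and 3.72% lower. After 3 h, 5 passed, 3 higher and 2 lower, against 28.9% of loci (16.4% higher and 12.5% lower). After 6 h, 6 passed, 4 higher and 2 lower, against 41.2% of loci (22% higher and 19.2% lower), and after 24 h, 4 passed, 1 higher and 3 lower, against 55% (23.4% higher and 31.6% lower). The median log2 change over the 9 members was 0.05, 0.02, 0.06 and -0.20 at the 4 times, beside -0.02, 0.01, -0.0002 and -0.07 over all loci. Members at least 2-fold changed and past the test numbered 1, 2, 3 and 1, where 1.49%, 3.88%, 5.54% and 8.5% of loci were. Members of the same set thus changed in opposite directions at 3, 6 and 24 h.

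**Figure D1:**
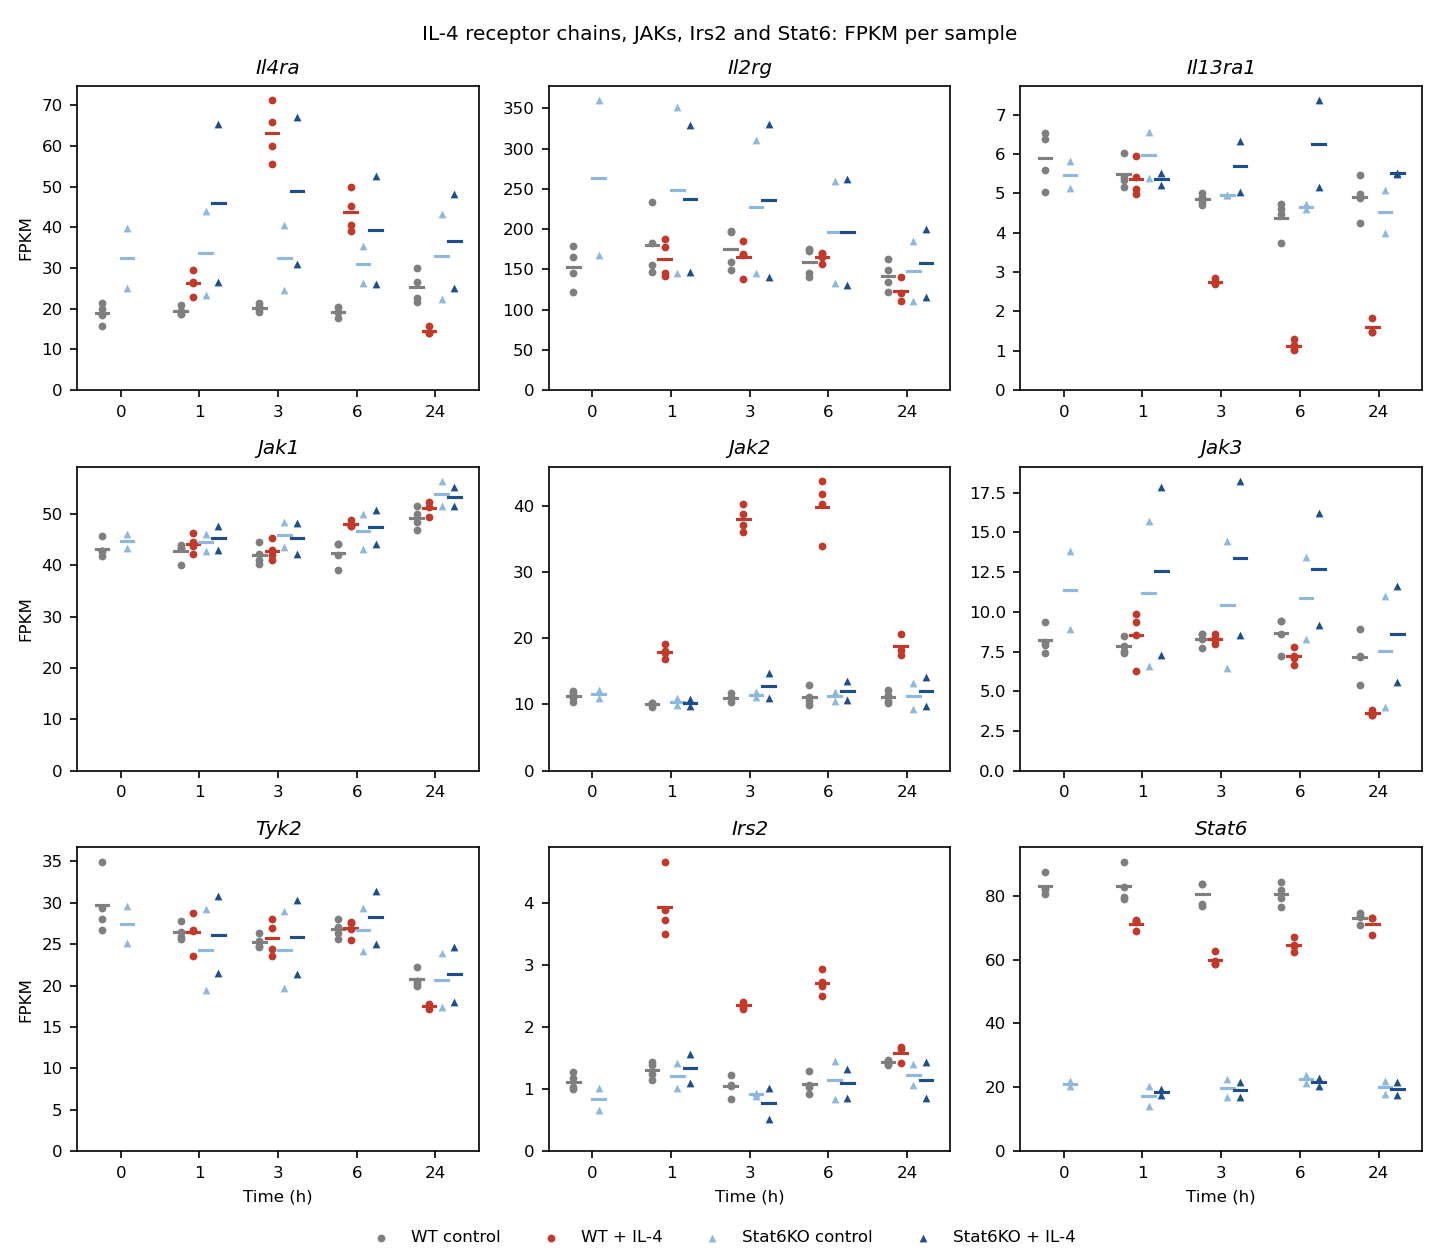
FPKM (vertical axis, linear, from 0) of the 9 members in each of the 53 samples against time in h (horizontal axis, evenly spaced categories), with a point per sample and a short line at each group mean: circles for WT and triangles for Stat6KO, pale for control and dark or red for IL-4. In WT, Il4ra peaks at 3 h (55.5 to 71.2 FPKM) and is below its controls at 24 h, Jak2 peaks at 3 and 6 h, Irs2 peaks at 1 h, and Il13ra1 is lowest at 6 h; Stat6 lies at 14.3 to 24.0 FPKM in every Stat6KO sample.

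The ligand-binding chain Il4ra was raised and later lowered by IL-4. In WT cells at 3 h the IL-4 samples were at 65.8, 55.5, 60.0 and 71.2 FPKM and the controls at 20.8, 19.1, 19.8 and 21.4 FPKM, so every IL-4 sample was above every control. The log2 change was 1.59 (SE 0.236, adjusted p = 9.0e-07), a 3.00-fold rise on the log2(FPKM + 1) scale. At 6 h Il4ra was at 45.3, 39.0, 49.9 and 40.6 FPKM with IL-4 and at 19.3, 17.8, 20.5 and 19.2 FPKM without (log2 change 1.14, SE 0.236, adjusted p = 0.00013). The groups did not overlap at this time either, and the rise was smaller than at 3 h by 0.44 on the log2 scale, a difference that did not pass the test when all samples were fitted and passed in the WT samples alone (adjusted p = 0.037).

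At 24 h the order was turned around for Il4ra. The 3 IL-4 samples were at 13.9, 14.1 and 15.7 FPKM and the 4 controls at 30.0, 21.7, 26.5 and 22.7 FPKM, so that every IL-4 sample was below every control. The log2 change was -0.74 (SE 0.255, adjusted p = 0.013), and the change of the response from 6 h to 24 h was -1.89 (limma, adjusted p = 5.5e-05). The 24 h call was lost on leaving out all libraries of WT replicate 1, 2 or 3 (adjusted p of 0.07, 0.064 and 0.11), with log2 changes of -0.66 to -0.78. It was also lost in the analysis of variance with Tukey's adjustment (0.34). With the WT samples alone, a fit chosen after seeing the data, the same log2 change had an SE of 0.103 and passed (limma, adjusted p = 3.5e-07).

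At 1 h Il4ra was at 26.3, 22.8, 29.6 and 26.6 FPKM with IL-4 and at 20.8, 19.4, 18.7 and 18.7 FPKM in the controls. These groups did not overlap, yet the log2 change of 0.42 (SE 0.236) did not pass the test with all 53 samples in the fit (adjusted p = 0.34). With the 8 samples compared alone its adjusted p was 0.0084, and with the WT samples alone, a fit chosen after seeing the data, it was 0.002. The SE was 0.0955 in the WT samples alone, since the Stat6KO samples, whose 2 replicate numbers differed for this gene, then no longer enter the spread. From 1 to 3 h the WT response grew by 1.17 on the log2 scale (adjusted p = 0.015), and this call was lost on leaving out any WT replicate number (adjusted p of 0.095 to 0.13).

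The common gamma chain Il2rg, shared with the receptors for IL-2, IL-7, IL-9, IL-15 and IL-21, passed no test of IL-4 in WT. Its WT levels ran from 110 to 234 FPKM over all groups, and IL-4 and control samples overlapped at each time. The log2 changes were -0.12, -0.09, 0.06 and -0.20 at 1, 3, 6 and 24 h. The 95% interval at 3 h was -0.66 to 0.49 with all samples in the fit and -0.37 to 0.19 with the WT samples alone.

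Il13ra1, the partner chain of the type II receptor, fell with IL-4. In WT at 3 h it was at 2.84, 2.68, 2.75 and 2.72 FPKM with IL-4 and at 4.79, 4.69, 4.91 and 5.00 FPKM without (log2 change -0.64, SE 0.0828, adjusted p = 5.4e-08). At 6 h it was at 1.15, 1.02, 1.03 and 1.28 FPKM with IL-4 and at 4.59, 3.74, 4.72 and 4.48 FPKM without. At both times every IL-4 sample was below every control, and at 6 h the mean fell by 74.4% (log2 change -1.34, SE 0.0828, adjusted p = 1.4e-16). The loss was still there at 24 h, at 1.47, 1.47 and 1.83 FPKM against 4.99, 4.26, 4.87 and 5.47 FPKM (log2 change -1.19, SE 0.0895, adjusted p = 7.6e-14). It was not seen at 1 h, when the groups overlapped (log2 change -0.03, adjusted p = 0.92). The response became more negative from 1 to 3 h by 0.61 and again from 3 to 6 h by 0.70 on the log2 scale, and both steps passed the test, as did 11.1% and 3.31% of loci.

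Because FPKM is a level per length, the 2 chains that compete for Il4ra can be set against each other within a sample. The ratio of Il2rg to Il13ra1 in WT was 30.5 ± 3.46 with IL-4 and 33.1 ± 8.93 without at 1 h (SD, n = 4 each), and these ranges overlapped. At 3 h it was 59.9 ± 6.66 against 36.3 ± 6.01, at 6 h 148.4 ± 19.4 against 36.7 ± 7.47 (n = 4 each), and at 24 h 78.6 ± 15.1 (n = 3) against 29.2 ± 4.78 (n = 4). At 3, 6 and 24 h every IL-4 sample was above every control. The exact permutation test (two-sided) gave p = 0.0286 at 3 and 6 h and 0.0571 at 24 h, each the smallest p its design allows, and 0.0571, 0.0571 and 0.0762 after adjustment over the 4 times, none under 0.05. In Stat6KO the ratio lay between 20.8 and 65.4 in the IL-4 and control samples from 1 to 24 h, with overlap of both groups at each time. At 3, 6 and 24 h it was lower with IL-4 than in the same-numbered control in both replicate numbers. At 1 h this held for replicate 2 only. The mean log2 difference between IL-4 and control in Stat6KO was 0.10, -0.16, -0.41 and -0.20 at 1, 3, 6 and 24 h, and it was not tested. The Il2rg level may include reads that could not be told from other genes, such as Gm20489, with which it shares exon bases.

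**Figure D2:**
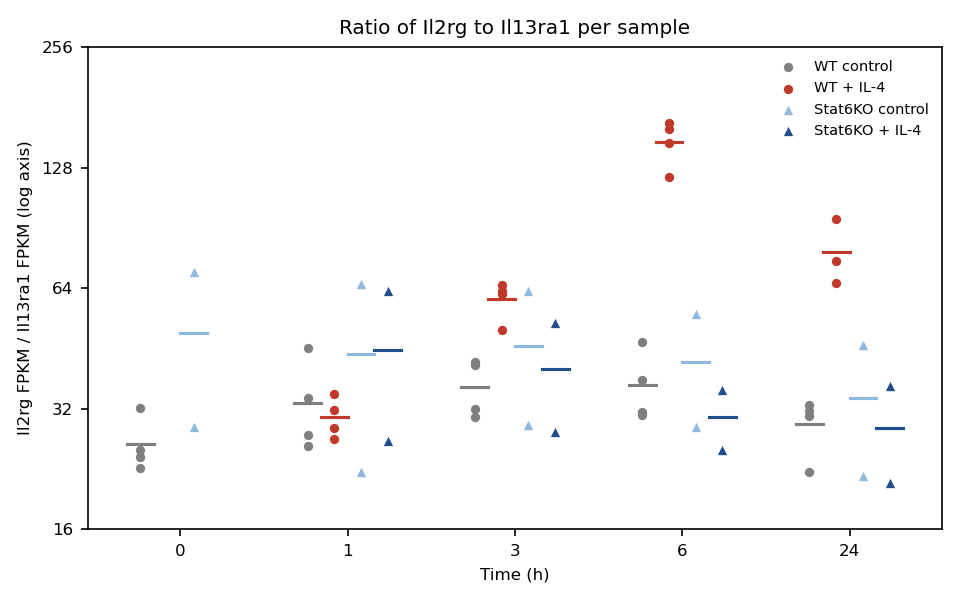
Ratio of Il2rg FPKM to Il13ra1 FPKM (vertical axis, log scale) in each sample against time in h (evenly spaced categories), with the group mean as a short line; circles are WT and triangles Stat6KO. The WT IL-4 samples separate upward from their controls at 3 h (50.2 to 65.1), 6 h (121 to 165) and 24 h (65.8 to 95.3), and the 2 Stat6KO numbers stay apart from each other in every group.

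Among the kinases, Jak2, which binds the Il13ra1 side of the type II receptor as well as many cytokine receptors, was higher with IL-4 at each time. In WT at 1 h it was at 19.2, 18.1, 16.9 and 17.7 FPKM with IL-4 and at 10.0, 9.55, 10.2 and 10.2 FPKM without. At 3 h it was at 37.0, 40.3, 36.1 and 38.8 FPKM against 11.7, 10.3, 11.2 and 10.9 FPKM. At 6 h it was at 43.7, 41.8, 40.3 and 33.9 FPKM against 12.9, 10.5, 11.1 and 9.89 FPKM. At all 3 times every IL-4 sample was above every control, and the log2 changes were 0.79 (adjusted p = 5.4e-08), 1.70 (adjusted p = 1.6e-17) and 1.76 (adjusted p = 4.3e-18), with SE 0.097 each. At 24 h it was still higher, at 20.6, 18.3 and 17.5 FPKM against 11.4, 12.2, 10.5 and 10.2 FPKM (log2 change 0.71, SE 0.105, adjusted p = 4.5e-07). The response grew from 1 to 3 h by 0.91 and receded from 6 to 24 h by 1.05 on the log2 scale, and both changes passed the test; from 6 to 24 h 27.8% of loci passed.

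Jak1, the kinase bound to Il4ra, and Tyk2, a further kinase tied to Il13ra1, passed the test with IL-4 at 1 time and at no time, respectively. Jak1 in WT ran from 39.2 to 52.4 FPKM over all groups, and its only passing change with IL-4 was at 6 h, at 47.9, 47.6, 47.6 and 48.9 FPKM against 44.1, 39.2, 44.2 and 42.1 FPKM (log2 change 0.18, adjusted p = 0.0091). That rise of 13.2% in the mean kept its direction but not its call after quantile normalization (0.12, adjusted p = 0.11), after upper-quartile scaling (0.13, adjusted p = 0.074) and without control replicate 2 (0.14, adjusted p = 0.056), and leaving out all libraries of WT replicate 2 or 4 gave adjusted p of 0.11 and 0.056. Tyk2 had WT log2 changes between -0.23 and 0.02, none of which passed. At 24 h its 3 IL-4 samples (17.8, 17.2 and 17.6 FPKM) nevertheless lay below the 4 controls (22.3, 20.5, 19.9 and 20.2 FPKM), and the adjusted p of 0.13 became 0.0053 with the 7 samples compared alone and 0.0049 with the WT samples alone.

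Jak3, the kinase that binds the common gamma chain and is largely confined to blood cells, passed the test at 24 h only among the times tested. In WT at 24 h it was at 3.83, 3.53 and 3.48 FPKM with IL-4 and at 8.94, 7.18, 7.19 and 5.39 FPKM without, with no overlap of the groups. The log2 change was -0.81 (SE 0.277, adjusted p = 0.013). This call too was lost without WT replicate 1, 2 or 3 (adjusted p of 0.072, 0.075 and 0.093), and in the analysis of variance with Tukey's adjustment (0.36). In the WT samples alone, a fit chosen after seeing the data, the same change had an SE of 0.112 and passed (limma, adjusted p = 3.4e-07). In the first 6 h the log2 changes were 0.10, -0.00 and -0.23, none of which passed, and the groups overlapped. At 6 h, however, Jak3 was lower with IL-4 in 4 of 4 same-numbered pairs, and it passed with the replicate number as a block (adjusted p = 0.037).

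The adaptor Irs2 was the lowest of the 9 at 0 h and had its highest WT mean at 1 h of IL-4. In WT at 1 h it was at 3.72, 3.88, 4.66 and 3.49 FPKM with IL-4 and at 1.24, 1.15, 1.43 and 1.39 FPKM without. Its mean was 3.02 times that of the controls, and the log2 change was 1.10 (SE 0.0964, adjusted p = 1.2e-11). It stayed above its controls at 3 h, at 2.40, 2.33, 2.36 and 2.30 FPKM against 1.05, 1.23, 1.06 and 0.837 FPKM, and at 6 h, at 2.67, 2.94, 2.72 and 2.51 FPKM against 1.29, 1.08, 0.919 and 1.04 FPKM. The groups were apart at both times (log2 changes 0.72 and 0.84, adjusted p of 1.3e-07 and 3.4e-09). At 24 h the IL-4 samples, at 1.65, 1.43 and 1.69 FPKM, overlapped the controls, at 1.45, 1.41, 1.39 and 1.47 FPKM (log2 change 0.09, adjusted p = 0.49; 0.24, adjusted p = 0.04 after quantile normalization), and from 6 to 24 h the response receded by 0.75 on the log2 scale, which passed the test.

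Stat6 itself was lowered by IL-4 in WT. At 3 h it was at 62.5, 58.8, 58.7 and 59.7 FPKM with IL-4 and at 83.7, 83.5, 77.5 and 76.7 FPKM without (log2 change -0.42, SE 0.0807, adjusted p = 7.6e-05). At 6 h it was at 62.4, 64.7, 67.2 and 64.2 FPKM against 81.7, 84.3, 79.3 and 76.4 FPKM (log2 change -0.31, adjusted p = 0.0018, and 0.0505 in the analysis of variance with Tukey's adjustment). The groups did not overlap at either time. At 1 h they were also apart, at 71.8, 72.3, 71.9 and 68.9 FPKM against 82.7, 90.6, 79.5 and 79.1 FPKM, and the log2 change of -0.22 did not pass with all samples in the fit (adjusted p = 0.095) but did with the 8 samples compared (0.045) and with the WT samples alone (0.00066). By 24 h the IL-4 samples (73.1, 67.7 and 73.0 FPKM) overlapped the controls (73.7, 70.8, 74.5 and 73.3 FPKM). From 6 to 24 h the IL-4 mean rose from 64.6 to 71.3 FPKM, and the control mean fell from 80.4 to 73.1 FPKM.

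The same comparisons in Stat6KO cells show what IL-4 did without STAT6. The knockout was visible in the gene itself: Stat6 in the Stat6KO controls was at 20.8% to 28.1% of the WT control mean of the same time, and its highest Stat6KO value, 24.0 FPKM, lay below the lowest WT value, 58.7 FPKM. Some signal was thus still assigned to the Stat6 locus. Where in the gene it lies cannot be seen from an FPKM value per locus, and the part deleted was not given in the sources used here. With IL-4, 0 of 9 members passed the test at any of the 4 times in limma (all adjusted p = 1), where 0% of loci passed at any time, and 0 passed in an analysis of variance with Tukey's adjustment. The number of members with an unadjusted p under 0.05 was 0, 0, 1 and 1 (0.458%, 1.18%, 0.79% and 0.332% of loci), in both cases Il13ra1, which was higher with IL-4 (log2 change 0.34 at 6 h and 0.24 at 24 h). Stat6KO held 2 samples per group, and its 95% intervals were wider than in WT, from -0.16 to 1.19 for Il4ra at 3 h.

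Side by side, the members that moved most in WT had these values in Stat6KO. Il4ra at 3 h was at 31.0 and 67.0 FPKM with IL-4 and at 24.6 and 40.5 FPKM without in replicates 1 and 2, and it was higher with IL-4 in 7 of the 8 same-numbered pairs over the 4 times (log2 change at 3 h 0.52, SE 0.334). Jak2 at 3 h was at 11.0 and 14.7 FPKM with IL-4 and at 11.1 and 11.9 FPKM without (log2 change 0.14, SE 0.137). Irs2 at 1 h was at 1.57 and 1.11 FPKM with IL-4 and at 1.42 and 1.01 FPKM without (log2 change 0.08, SE 0.136). Il13ra1 at 6 h was at 5.16 and 7.36 FPKM with IL-4, both above the controls at 4.60 and 4.72 FPKM, the opposite order to WT. Its IL-4 samples were also above its controls at 3 and 24 h, and overlapped them at 1 h. Jak3 and Tyk2 were higher with IL-4 in 8 of 8 pairs, though by log2 changes of at most 0.34 and 0.10, none of which passed. The 8 pairs come from the same 2 replicate numbers over the 4 times. The share of all loci with such counts was not computed.

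**Figure D3:**
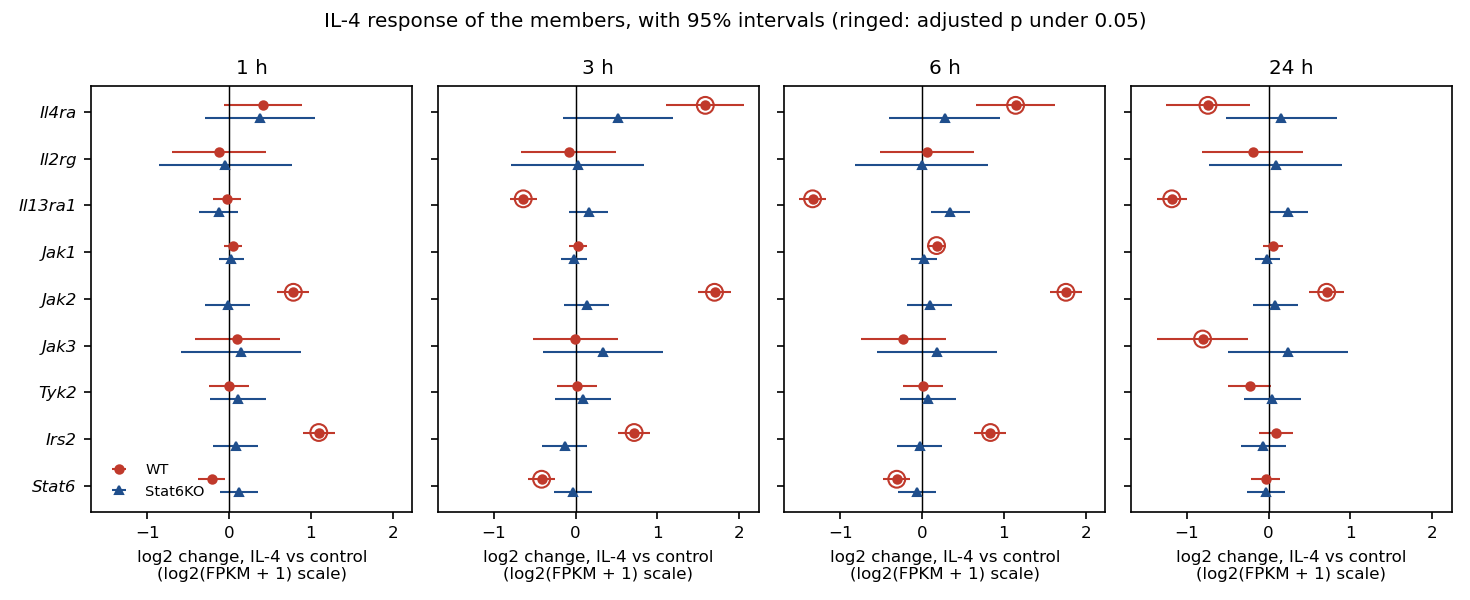
Log2 change of each member with IL-4 against the time-matched control (horizontal axis, log2(FPKM + 1) scale), a panel per time, with the 95% interval of the limma fit as a bar; red circles are WT, blue triangles Stat6KO, and a ring marks an adjusted p under 0.05. Rings appear on WT points only: 2, 5, 6 and 4 after 1, 3, 6 and 24 h. The Stat6KO points lie between -0.13 and 0.52.

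Whether the WT and Stat6KO responses differed was tested directly. The WT response minus the Stat6KO response passed for Irs2 and Jak2 at 1 h, where 3.36% of loci passed, with differences of 1.02 (SE 0.167) and 0.81 (SE 0.168) on the log2 scale. At 3 h and at 6 h it passed for Il13ra1, Irs2 and Jak2, against 11.2% and 16.5% of loci: Il13ra1 by -0.80 and -1.68, Irs2 by 0.85 and 0.86, and Jak2 by 1.56 and 1.67. At 24 h it passed for Il13ra1 (-1.43) and Jak2 (0.63), against 27% of loci. The Jak2 difference at 24 h was lost with only the groups compared in the fit (adjusted p = 0.09), without Stat6KO IL-4 replicate 1 (0.38, adjusted p = 0.097) and without Stat6KO control replicate 2 (0.40, adjusted p = 0.084).

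For Il4ra, Stat6 and Jak3 the answer depended on how the 2 Stat6KO replicate numbers entered the fit. The Il4ra difference was 1.07 at 3 h (95% interval 0.24 to 1.90, adjusted p = 0.094), 0.87 at 6 h (adjusted p = 0.16) and -0.90 at 24 h (adjusted p = 0.11). Same-numbered Stat6KO samples deviated together, and a block for the replicate number takes that spread out. With this block Il4ra passed at 3, 6 and 24 h (adjusted p of 1.1e-06, 2.8e-05 and 3.2e-05, and 0.00015, 0.0015 and 0.0013 with the block as a random effect). Without Stat6KO replicate 2 it was 1.27, 1.15 and -0.90, and all 3 passed (adjusted p of 7.1e-05, 0.00018 and 0.0021). Without Stat6KO replicate 1 it was 0.87 at 3 h and -0.90 at 24 h, and both passed (adjusted p of 0.005 and 0.0025), while the 0.58 at 6 h did not (adjusted p = 0.062). In these fits each Stat6KO group held 1 sample, assumed to vary like the WT samples, and the spread between the 2 Stat6KO numbers no longer entered. Leaving out single Stat6KO libraries, which sets unlike replicate numbers against each other, also brought Il4ra past the test: IL-4 replicate 2 or control replicate 1 at 3 h (1.61 and 1.42), IL-4 replicate 2 at 6 h (1.36), and IL-4 replicate 1 or control replicate 2 at 24 h (-1.36 each).

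Jak3 at 24 h differed by -1.04 (adjusted p = 0.086), and by -1.20 without Stat6KO replicate 2 (adjusted p = 0.00025), by -0.88 without Stat6KO replicate 1 (adjusted p = 0.0061), by -1.51 without IL-4 replicate 1 and by -1.67 without control replicate 2 of that time. With the block it was -1.01 (adjusted p = 8.8e-06). Stat6 differed by -0.34 at 1 h and -0.39 at 3 h (adjusted p of 0.31 and 0.069), and by -0.51 and -0.42 without Stat6KO replicate 2 (adjusted p of 0.0012 and 0.004). With the block Stat6 passed at 1, 3 and 6 h (adjusted p of 0.0063, 0.00048 and 0.023). It also passed at 1 h without control replicate 2 (-0.58), at 3 h without IL-4 replicate 1 (-0.55) or control replicate 2 (-0.58), and without the whole of Stat6KO replicate 1 at 3 h (-0.36). After quantile normalization or upper-quartile scaling the 3 h difference was -0.40 and passed (adjusted p of 0.043 and 0.049). In a knockout of Stat6 this last gene is the target, so its Stat6KO response is read only from the signal left at its locus. For Il2rg, Jak1 and Tyk2 the difference passed at no time without the block, and with it Tyk2 passed at 24 h (-0.25, adjusted p = 0.041). For Il2rg the interval at 3 h was -1.11 to 0.89.

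The 2 Stat6KO replicate numbers stood apart from each other for several members. Replicate 2 was above replicate 1 in 9 of 9 groups for Il4ra (1.86 times, as a geometric mean), Il2rg (2.06 times), Jak3 (2.08 times), Tyk2 (1.35 times), Jak2 (1.21 times) and Stat6 (1.21 times), and below it in 9 of 9 groups for Jak1 and Irs2. For Il13ra1 the numbers did not differ in one direction, with replicate 2 higher in 3 of 9 groups. The share of all loci that kept the same direction in 9 of 9 groups was not computed. Over all tested loci, 458 (4.11%) differed at least 2-fold between these 2 numbers, against 0.17% to 0.386% between any pair of WT numbers. A further 4 genes, interferon-related and chosen after their values were seen, were also higher in replicate 2 in 9 of 9 groups: Irf7 7.74 times, Ifit2 8.46 times, Ccl5 36.8 times and Oasl1 7.63 times. Their part in the levels of the members was not tested.

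**Figure D4:**
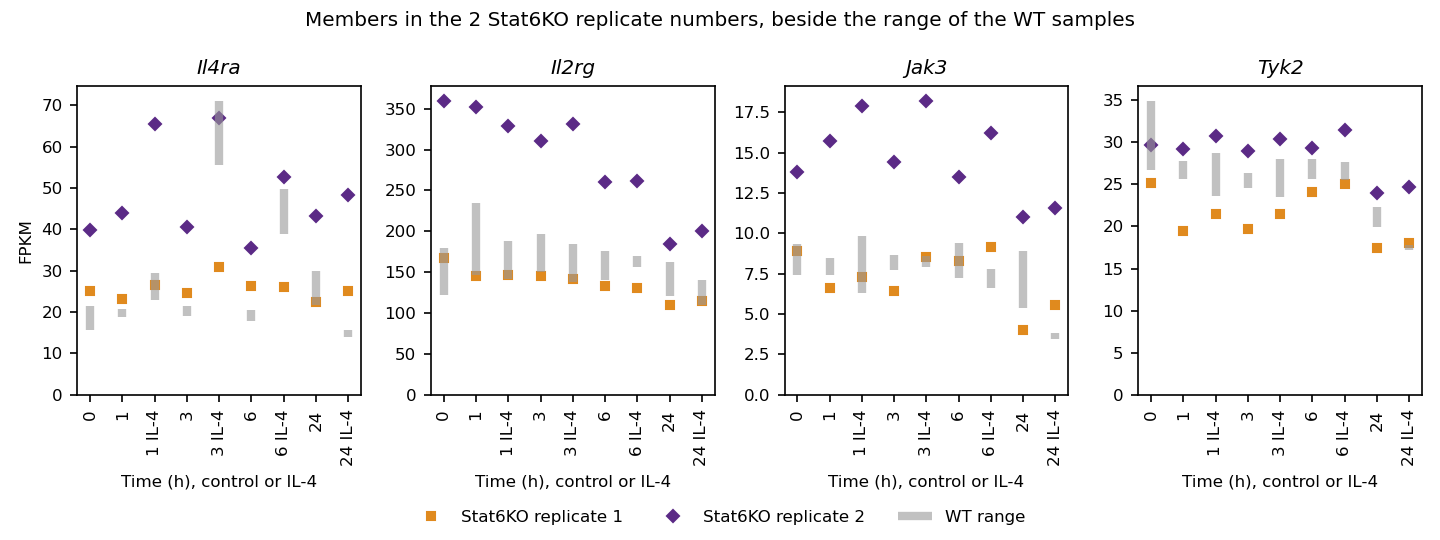
FPKM (vertical axis, linear, from 0) of Il4ra, Il2rg, Jak3 and Tyk2 in each Stat6KO sample, with squares for replicate 1 and diamonds for replicate 2, over the 9 groups in order of time (horizontal axis, control and IL-4 side by side); grey bars span the lowest to the highest WT sample of the same group. Replicate 2 lies above replicate 1 in each of the 9 groups of all 4 genes, and Il2rg in replicate 2 (185 to 359.8 FPKM) exceeds the WT bar of each group.

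Without IL-4, the genotypes were compared over the 5 control times. Of the members, 3 passed, where 21.4% of loci did: Stat6 lower (log2 change -1.95, SE 0.0442, adjusted p = 6.6e-30), Il4ra higher (0.60, SE 0.129, adjusted p = 0.00072) and Jak1 higher (0.10, SE 0.0301, adjusted p = 0.016). Stat6 was the one member past 2-fold, as were 0.287% of loci. At 0 h Il4ra was at 25.0 and 39.8 FPKM in Stat6KO, above the WT samples at 21.4, 15.7, 18.4 and 19.8 FPKM, and at 24 h replicate 1 was at 22.4 FPKM, inside the WT range. Without Stat6KO replicate 2 the Il4ra difference was 0.24 (adjusted p = 0.0072) and without replicate 1 it was 0.95 (adjusted p = 2.4e-12). With the controls of each replicate number averaged to 1 sample, 4 WT against 2 Stat6KO, only Stat6 passed, and Il4ra had an adjusted p of 0.27.

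For the other members the call, and for Jak3 and Tyk2 the direction, depended on the libraries used. Jak1 was higher in each of these fits but lost its call without Stat6KO replicate 1 (0.03, adjusted p = 0.45), without its 3 h or 6 h control alone (adjusted p of 0.052 and 0.065), and without WT replicate 1 or 2 (0.066 and 0.075). Jak3 was 0.24 higher in Stat6KO and did not pass, but was lower without replicate 2 (-0.23, adjusted p = 0.017) and higher without replicate 1 (0.70, adjusted p = 5.7e-09). Tyk2 likewise went from -0.07 to -0.28 (adjusted p = 2.9e-05) without replicate 2 and to 0.13 (adjusted p = 0.015) without replicate 1. Il2rg was 0.32 higher (adjusted p = 0.15), and 0.83 higher (adjusted p = 3.8e-08) without replicate 1; it also passed without the 1 h or the 3 h control of replicate 1 (0.44 and 0.43). In all, 7 members passed without replicate 1, Jak2 (0.13) and Irs2 (-0.21) among them, and 5 without replicate 2, where 47.4% and 29.5% of all loci passed in the same fits. All 6 neutrophil markers tested passed and were higher in the Stat6KO controls, where 21.4% of all loci passed in either direction. So did 2 of 2 tested mast cell and basophil markers and 2 of 7 macrophage markers. The part of these markers in the differences was not tested.

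Time in culture alone was examined in WT controls, first with all samples in the fit and no block. From 0 to 24 h, Jak1 was higher (log2 change 0.18, adjusted p = 0.019) and Tyk2 lower (-0.49, adjusted p = 0.0038), 2 of 9 members against 17.2% of loci. Tyk2 fell from 35.0, 26.7, 28.0 and 29.3 FPKM to 22.3, 20.5, 19.9 and 20.2 FPKM, with no overlap, and its adjusted p was 0.065 without WT replicate 1. The Jak1 call was lost without control replicate 1 at 0 h (adjusted p = 0.063), without control replicate 4 at 24 h (0.073) and without any WT replicate number. With the WT samples alone 6 members passed from 0 to 24 h, where 31.3% of loci did, Il4ra (0.40), Irs2 (0.20), Jak1 (0.18), Il13ra1 (-0.22), Stat6 (-0.18) and Tyk2 (-0.49). In Stat6KO, 0 members passed from 0 to 24 h, where 0.718% of loci did, and 3 had an unadjusted p under 0.05 (14.7% of loci); without replicate 1, Il2rg passed (-0.96), and without replicate 2, Jak3 (-0.99) and Tyk2 (-0.51). With the replicate number as a block, fixed or random, 6 members passed in WT and 5 in Stat6KO from 0 to 24 h. No share of all loci was computed for these block fits. In WT at 1, 3 and 6 h against 0 h, 0 members passed with all samples, where 2%, 0.144% and 0.135% of loci did, and 0, 1 and 1 members had an unadjusted p under 0.05 (11.7%, 6.48% and 8.1% of loci).

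Cell markers were also examined in the 24 h IL-4 group, at a time when 31.6% of all loci passed and were lower. Of the 7 macrophage markers, 4 passed and were lower, among them Mertk (log2 change -1.89) and Csf1r (-0.61), and of the 6 neutrophil markers tested 4 passed and were lower (S100a8 at -1.20 the most). Their part in the fall of Il4ra, Jak3 and Il13ra1 at that time was not tested. At 3 and 6 h, 0 neutrophil markers passed, and 1 and 2 macrophage markers passed and were lower, as 12.5% and 19.2% of all loci did.

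The rest of the pathway gives the context of the members. The ligands were at or near 0: Il4 was listed at 0 in 36 samples and Il13 in 50 of the 53. Of 7 other chains of the gamma-chain and IL-13 receptors, 4 (Il2ra, Il2rb, Il9r and the decoy chain Il13ra2) stayed under 1 FPKM in every sample and were not tested. Il7r, the IL-7 receptor alpha chain, was lower with IL-4 in WT at 3 h, at 36.9 ± 9.19 against 88.3 ± 16.6 FPKM (SD, n = 4 each, log2 change -1.25, limma adjusted p = 4.3e-05), and at 6 h (-0.95). Il15ra was lower at 6 h (-0.36) and 24 h (-0.45).

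Downstream of Irs2, 16 of 17 genes of the IRS and PI3K branch, Irs2 included, were tested, since Irs1 was under 1 FPKM. The numbers that passed higher and lower were 2 and 2 at 1 h, 2 and 5 at 3 h, 1 and 7 at 6 h, and 2 and 9 at 24 h; the median log2 changes were -0.06, -0.13, -0.17 and -0.19. Over all loci 5.67%, 16.4%, 22% and 23.4% passed higher and 3.72%, 12.5%, 19.2% and 31.6% lower at these times, with medians of -0.02, 0.01, -0.0002 and -0.07. Pik3cb, a catalytic subunit, was at 3.64 ± 0.249 FPKM against 11.9 ± 1.11 FPKM at 3 h (SD, n = 4 each). At the same time Pik3r5, a regulatory subunit of PI3K gamma, was at 30.3 ± 2.41 against 72.9 ± 3.67 FPKM (SD, n = 4 each). Both were more than 2-fold lower on the log2(FPKM + 1) scale (-1.47 and -1.24) and passed. At 24 h the adaptor Shc1 was higher (1.09), and Pik3cg (-0.73), the phosphatase Inpp5d (-0.67) and Pik3r1 (-0.63) were lower.

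Of 15 genes that restrain the receptor and its kinases, 5 passed higher and 0 lower at 1 h. At 3 h and at 6 h, 7 passed higher and 1 lower, and at 24 h 7 and 3. The median log2 changes of the list were 0.17, 0.05, 0.20 and 0.31 at these times, beside -0.02, 0.01, -0.0002 and -0.07 over all loci. Of all loci, 5.67%, 16.4%, 22% and 23.4% passed higher and 3.72%, 12.5%, 19.2% and 31.6% lower. Socs1, an inhibitor of JAK activity, went from 0.592 ± 0.172 to 95.3 ± 21.1 FPKM at 1 h (SD, n = 4 each, log2 change 5.90), and Cish, of the same family, from 0.414 ± 0.123 to 42.6 ± 8.69 FPKM at 3 h (4.93). The mean Socs1 level at 1 h was thus above the Stat6 levels of the same IL-4 samples, none of which passed 72.3 FPKM. The ubiquitin ligases Cbl (1.40 at 1 h) and Cblb (1.90 at 24 h) were also higher.

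Of 5 STAT6 coactivators, 0 passed at 1 h, 1 higher and 1 lower at 3 h and at 6 h, and 1 higher and 3 lower at 24 h, where 9.39%, 28.9%, 41.2% and 55% of all loci passed in either direction. Snd1, also known as p100, was at 83.6 ± 10.9 against 38.5 ± 2.91 FPKM at 6 h (SD, n = 4 each, log2 change 1.09), and Parp14 was at 18.0 ± 1.60 (n = 3) against 45.4 ± 1.67 FPKM (n = 4) at 24 h (-1.29). As a check that the ligand acted, 2, 6, 6 and 6 of 6 textbook STAT6 targets passed and were higher in WT at 1, 3, 6 and 24 h, Pdcd1lg2 among them at each time (1.18, 4.08, 4.96 and 3.53). In Stat6KO, 0 genes of any of these lists passed with IL-4 at any time, as was so for all loci.

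The loci whose WT pattern most resembled that of a member were found over the 9 WT group means. For Il4ra these were Atp2c1 (Pearson r 0.987), Megf9 (0.981) and Pdgfc (0.978), for Il13ra1 Msrb1 (0.993), Ndst1 (0.991) and Mpp1 (0.989), for Jak2 Cltc (0.996), Snn (0.994) and Pla2g12a (0.994), and for Irs2 Zc3h12a (0.979) and Usmg5 (0.966). All of these values share the same samples, were chosen as the highest of many loci, and are given as a description.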

How the data were processed

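The authors mapped reads to mm10 with TopHat2 2.0.7 and computed FPKM with Cufflinks 2.0.2 (versions from the submitters' processing notes), and deposited the FPKM values as a table for each sample. The gene annotation is not given in the sources used here. FPKM is scaled within a sample, so large changes in abundant genes shift all other values. The absolute depth is unknown, and no counting interval is given.

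The tables were joined on locus and symbol, and estimates of at most 1e-06 were set to 0. Loci that reached 1 FPKM in any of the 53 samples (11146 of 23847; 81 share a symbol) were fitted on log2(FPKM + 1) with limma 3.58.1 in R 4.3.3, as group means with eBayes and an intensity trend (35 residual degrees of freedom), two-sided, with Benjamini-Hochberg adjustment over these loci within each comparison. The study's methods name an analysis of variance with post hoc tests. It is an alternative here. The fit was tested on simulated data. A call needed an adjusted p under 0.05 and, where stated, a log2 change of at least 1. The ratio of Il2rg to Il13ra1 was tested by exact permutation. Groups and replicate numbers came from the labels. WT replicate 1 with 24 h of IL-4 was not analysed here. The study's text describes the WT samples as individual animals and does not say this of the 2 Stat6KO numbers. Which replicate number is which animal is not given in the sources used here. For Stat6KO, p-values rest on a spread shared by all groups, with 26 of its 35 residual degrees of freedom from WT samples. The spread between the Stat6KO samples themselves may in part be technical. Deviations of same-numbered samples correlated at over 0.1 in 8 of 8 Stat6KO pairs and 13 of 15 WT pairs, so the value with the number as a block is printed where it changes a call in the comparison of the genotypes' responses.

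The members, lists, tests and markers were chosen with earlier results of these data known. Named genes were the 9 members in every group, up to 4 genes per list with the largest change among those that passed, and the 3 loci most like each member past 2-fold in WT, of which 1 is not reported here. Alternatives were another pseudocount, other filters, 2 scalings, other sets of samples, the replicate number as a block, no intensity trend, and leaving out libraries. Sequences are from RefSeq, matched by symbol for 9 of 9 members. GENCODE was used for overlapping genes.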

Additional observations from a re-analysis of the deposited data

Results flagged for a closer look

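The WT response to IL-4 minus the Stat6KO response passed the interaction test (limma, adjusted p under 0.05) in 10 cases. For Jak2 it was 0.81, 1.56, 1.67 and 0.63 on the log2 scale after 1, 3, 6 and 24 h, higher in WT each time. For Irs2 it was 1.02 at 1 h, 0.85 at 3 h and 0.86 at 6 h. For Il13ra1 it was -0.80 at 3 h, -1.68 at 6 h and -1.43 at 24 h, so the WT response was the lower one.

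One sample lay far from the others of its group: Stat6 in WT with 1 h of IL-4 was at 68.9 FPKM in replicate 4, where the other 3 samples were at 71.8 to 72.3 FPKM. Of 72 sets of 4 samples examined, this 1 was flagged, and chance alone would flag about 3.6, 1 in 20.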

How the results depend on the processing

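The number of members that passed, as reported, is given first in each case. Of the alternative values of these counts and of the chain ratio, 485 stayed within 1.5 times the reported count or kept direction and side of the threshold, and 50 did not. IL-4 in WT at 1 h went from 2 to 4 with only the groups compared, with the WT samples only, with the replicate block and with the block as a random effect; at 24 h it went from 4 to 2 in the analysis of variance with Tukey's adjustment and ranged from 2 to 4 on leaving out libraries, lowest without WT replicate 1, 2 or 3. The interaction went from 3 to 5 at 3 h and at 6 h with either form of the block, and at 24 h from 2 to 1 with only the groups compared, to 5 with the block and to 4 with the random effect; on leaving out libraries it ranged from 3 to 5 at 3 h and from 2 to 4 at 24 h, highest without Stat6KO replicate 1 or 2. Stat6KO against WT controls went from 3 to 1 with the mean per replicate number and with 0 h controls only, and ranged from 2 to 7 on leaving out libraries; there Jak3 reversed from 0.24 to -0.23 without Stat6KO replicate 2 (0.70 without replicate 1) and Tyk2 from -0.07 to 0.13 without replicate 1 (-0.28 without replicate 2). Time in culture in WT went from 0 to 1 at 3 h with the block, from 0 to 1 at 6 h with quantile normalization, either block and the WT samples only, with 0 to 1 on leaving out libraries (WT 0 h replicate 1), and from 2 to 6 at 24 h with either block and the WT samples only, with 0 to 2 on leaving out libraries; in Stat6KO it went from 0 to 5 with either block, with 0 to 2 on leaving out libraries. The change of the WT response went from 3 to 5 from 1 to 3 h with either block and the WT samples only; from 1 to 2 from 3 to 6 h with only the groups compared and the WT samples only and to 3 with the block; and from 3 to 6 from 6 to 24 h with the first 2 of these, to 7 with the block and to 5 with the random effect. The cause of these changes was not tested. The fit on WT samples only was chosen after seeing the data. Leaving out libraries gave 5 to 6 for IL-4 in WT at 6 h and changed neither the 5 at 3 h nor the 0 in Stat6KO. The labels do not say that a replicate number marks an animal: deviations of same-numbered IL-4 and control samples correlated at 0.0265 to 0.561 in 15 WT pairs (13 over 0.1) and at 0.791 to 0.9 in 8 Stat6KO pairs, and 12 of 15 WT IL-4 samples correlated best with the control of their own number, so the block is an alternative and not the fit reported first. With 2 numbers the deviations mirror each other, so the 8 Stat6KO values are 4 separate ones. Genotypes could not be compared with the block as a fixed effect, because numbers are nested in genotype. Without read counts, the precision of low genes such as Irs2 and Il13ra1 is known only from the spread between samples.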
